A study of Mus musculus with 12 samples.

Results

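Fc gamma receptors bind the constant part of immunoglobulin G (IgG) and so tie antibodies to the cells that act on them. The family was described here as 5 mouse genes: the ligand-binding alpha chains Fcgr1, Fcgr2b, Fcgr3 and Fcgr4, and Fcer1g, which encodes the signalling gamma chain. Members were taken by gene symbol from the tumor table and the in vitro table, and 5 of 5 were found in both among 17285 genes. The samples were cells of the murine melanoma line #781, grown in culture or as whole tumors. In each setting, 3 samples were Nfe2l2 wildtype (control) and 3 were Nfe2l2 knockout, that is, without the transcription factor NRF2. The line was made from tumors of mice with Tyr-CreERT2 and BRAF CA among their alleles, in which a tamoxifen-dependent Cre recombinase under the tyrosinase promoter activates oncogenic BRAF in melanocytes, and was passed once under the skin of C57BL/6 mice. Both genotypes therefore carried the changes of the parent line. Knockout cells were made by CRISPR/Cas9 with a pair of guide RNAs used together, and 1 set of control and knockout cells was injected into the flanks of young C57BL/6 mice of both sexes. These hosts have an intact immune system, and a resected tumor holds host cells beside the melanoma cells. The in vitro samples were pellets of #781 cells grown in serum-containing medium outside an animal.

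The value used for each gene and setting was the authors' mean log2 CPM, the log2 of the depth-scaled read count (CPM) taken over the 3 control and 3 knockout samples together. Values per sample were not analysed here, so no standard deviation, depth or test stands beside a level, and control and knockout samples could not be told apart. The tables were normalized separately, so every difference between tumors and culture below is a description on that scale. Over all genes the median difference, tumors minus culture, was 0.10 log2 units. Mean log2 CPM ran from -1.01 to 12.94 with a median of 4.30 in tumors, and from -1.05 to 12.97 with a median of 4.11 in vitro. Nfe2l2 itself, the targeted gene, had a mean over both genotypes of 8.25 in tumors and 7.70 in vitro, which says nothing about the knockout.

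Activating receptors of the family (Fcgr1, Fcgr3 and Fcgr4 in the mouse) signal through the gamma chain, which also carries them to the cell surface. The gamma chain holds an immunoreceptor tyrosine-based activation motif (ITAM). Once phosphorylated by Src family kinases the ITAM recruits the kinase Syk, which leads to phagocytosis, an oxidative burst and cytokine release. Fcgr2b carries an inhibitory motif (ITIM) in its own tail instead, and recruits the lipid phosphatase encoded by Inpp5d (SHIP-1) to dampen the same signal. In mice, macrophages can carry all of these receptors, whereas natural killer (NK) cells mainly carry the Fcgr3 product and B cells the Fcgr2b product.

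The coding stretches of both signalling motifs are shown because they separate the roles within the family. They were read from the principal GENCODE M21 transcripts (GRCm38), with the codons of the motif tyrosines in capitals. The Fcer1g stretch lies at chr1:171229889-171230072 on the minus strand, in 2 exons, and spans codons 65 to 79 of 86. The Fcgr2b stretch lies at chr1:170961071-170961088 on the minus strand, in 1 exon, and spans codons 317 to 322 of 340.
Fcer1g ITAM: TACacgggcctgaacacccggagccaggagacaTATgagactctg
Fcgr2b ITIM: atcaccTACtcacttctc
The ITAM pattern was found in Fcer1g and in none of the alpha chains. The shorter ITIM pattern is less specific: it also matched 3 places in Fcgr1, 1 in Fcgr4 and 1 in Fcer1g, and none in Fcgr3, and these matches are letters only.

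A further stretch is shown because it bears on how well reads of Fcgr2b and Fcgr3 can be kept apart. The coding sequences of these genes were 88.2% identical (665 of 754 aligned bases). Their longest identical run was 129 bases, at chr1:170966674-170968081 in Fcgr2b and chr1:171054167-171057792 in Fcgr3, each on the minus strand and in 2 exons. It covers coding bases 278 to 406 of Fcgr2b and 263 to 391 of Fcgr3.
Fcgr2b and Fcgr3, shared run: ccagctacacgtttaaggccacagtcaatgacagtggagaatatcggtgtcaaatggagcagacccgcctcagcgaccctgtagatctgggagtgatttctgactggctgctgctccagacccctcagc
Of the 50-base windows in the coding sequence, 22.1% of Fcgr3 and 17.1% of Fcgr2b occurred in the other gene. How the authors' counting treated such reads is not given in the sources used here, so the levels of Fcgr2b and Fcgr3 are uncertain to that extent. Fcgr1, Fcgr4 and Fcer1g had 0 windows in common with any other gene, and no other pair within the family had an identical run longer than 14 bases.

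All 5 genes had a mean in the middle or upper part of the tumor table and a mean close to the lowest value of the in vitro table. Across the whole tables, 55.9% of genes had a higher mean in tumors than in vitro, and 16.6% were higher by over 1 log2 unit. All 5 members met both conditions. The stricter condition of a mean over 4 in tumors and under 0 in vitro was met by 0.879% of genes (152 of 17285) and by 5 of 5 members. These limits of 4 and 0 were chosen after the data were seen. Genes at the lowest in vitro value had tumor means of -0.01 or more, so such a gene was listed only through its tumor level. Among the 2822 genes under 0 in vitro 88.8% were higher in tumors and 5.39% exceeded 4 there. Whether more cells that express these genes or more RNA per cell set a tumor level cannot be told apart in whole tumors.

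**Figure D1:**
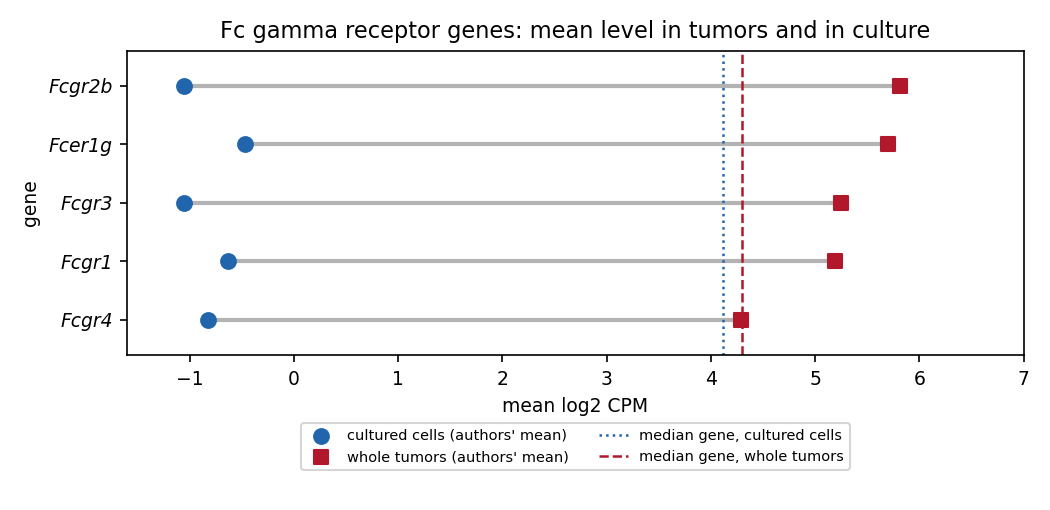
Authors' mean log2 CPM of the 5 Fc receptor genes in whole tumors (red squares) and cultured #781 cells (blue circles), 1 mean over 6 samples each, with the median gene of each table as a vertical line. The tumor means lie between 4.29 and 5.82 and the in vitro means between -1.05 and -0.47.

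Among the activating receptors, Fcgr1 (ENSMUSG00000015947, chr3:96282909-96293969, minus strand) encodes the high-affinity IgG receptor. Its mean log2 CPM was 5.19 in tumors and -0.64 in vitro, a difference of 5.82. The tumor level stood at percentile 63.5 of that table, the in vitro level at percentile 6.98, and the difference ranked 72 of 17285.

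Fcgr3 (ENSMUSG00000059498, chr1:171051174-171064935, minus strand) encodes a low-affinity receptor for IgG complexes. Its mean log2 CPM was 5.24 in tumors, at percentile 64.4. In vitro it stood at the lowest value of the table, -1.05, as 1 of 523 genes. The nominal difference of 6.29 depends on the small offset that the authors' log scale gives to an undetected gene, so no fold is given.

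Fcgr4 (ENSMUSG00000059089, chr1:171018920-171029761, plus strand) encodes a receptor of intermediate affinity for IgG2a and IgG2b. Its mean log2 CPM was 4.29 in tumors and -0.83 in vitro, a difference of 5.11 that ranked 147 of 17285. The tumor level, at percentile 49.8, was next to the median gene of that table, and the in vitro level was at percentile 4.81.

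Fcgr2b (ENSMUSG00000026656, chr1:170958617-170976547, minus strand), the inhibitory receptor, had a mean log2 CPM of 5.82 in tumors, at percentile 73.7. In vitro it stood at the lowest value, -1.05, as Fcgr3 did. The nominal difference of 6.87 ranked 23 of 17285 and carries the same dependence on the offset.

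Fcer1g (ENSMUSG00000058715, chr1:171229572-171234365, minus strand), the gamma chain gene, had a mean log2 CPM of 5.69 in tumors and -0.47 in vitro, a difference of 6.16 that ranked 50 of 17285. Its tumor level was at percentile 71.9 and its in vitro level at percentile 9.32, the highest in vitro percentile among the members.

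Low values of the in vitro table fell on equal steps of 0.0402 CPM above a lowest value of 0.483 CPM, as sums of few whole reads would. All 2822 genes within 12 steps of the lowest value lay on a step within a tolerance of 0.1 step. On this ladder Fcgr2b and Fcgr3 were at step 0, Fcgr4 at step 2, Fcgr1 at step 4 and Fcer1g at step 6. The lowest value itself, at which an undetected gene stands, made up 85.7% of the in vitro CPM of Fcgr4, 75.0% of that of Fcgr1 and 66.7% of that of Fcer1g, so the differences and their ranks depend on this offset for all 5 members. The reads behind a step are not known per sample, so a true absence from cultured #781 cells cannot be told from a very low level, and the order of the members in vitro was not read further. In tumors the same genes were 458 to 1346 steps of 0.0415 CPM above the lowest value.

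**Figure D2:**
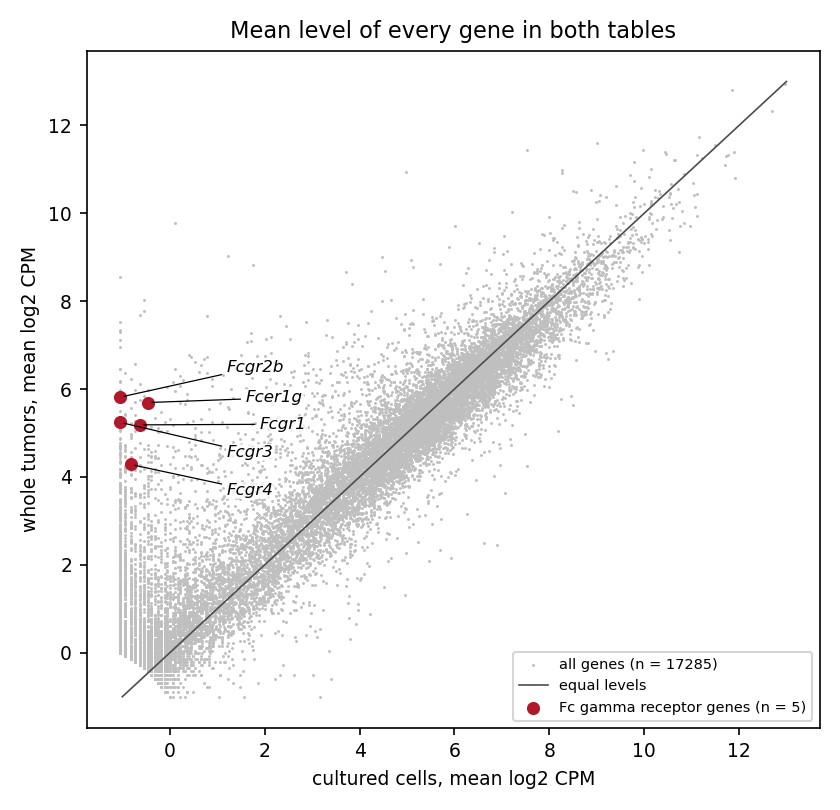
Authors' mean log2 CPM of each of 17285 genes in cultured cells (horizontal) and whole tumors (vertical), with the 5 Fc receptor genes in red and the line of equal levels. The members lie together at the left edge, between 4.29 and 5.82 on the tumor axis, and the vertical stripes at the left are the equal CPM steps.

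The order of the members in tumors depended on gene length, because a longer transcript gives more reads. Per kb of all annotated exons, Fcer1g had 5.89 log2 CPM per kb, Fcgr3 4.45, Fcgr4 3.96, Fcgr1 3.81 and Fcgr2b 3.28. On a linear scale these were 59.2 CPM per kb for Fcer1g, 21.8 for Fcgr3, 15.5 for Fcgr4, 14.1 for Fcgr1 and 9.73 for Fcgr2b. The gamma chain thus stood first, at percentile 93.4 of the 17230 genes with a known length, and Fcgr2b last, at percentile 63.6. With no spread over samples, it cannot be said which neighbours in this order differ. Fcgr4 and Fcgr1 were 0.14 log2 units apart.

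Summed over Fcgr1, Fcgr3 and Fcgr4, the activating alpha chains reached 51.4 CPM per kb, which was 5.29 times the level of the inhibitory Fcgr2b. The gamma chain level was 1.15 times that sum. The gamma chain is also a partner of other receptors, among them the IgE receptor and several C-type lectins, so the ratio is not one of subunits within a complex. Of the total of the 4 alpha chains, Fcgr3 made up 35.7%, Fcgr4 25.4%, Fcgr1 23.0% and Fcgr2b 15.9%.

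The place of Fcgr2b rested on the choice of length. Its annotated exons cover 5790 bases, but its longest single transcript has 3544 bases. Divided by the longest transcript, Fcgr2b had 3.99 log2 CPM per kb and stood in the third place, above Fcgr4 at 3.96 and Fcgr1 at 3.81, while Fcer1g at 6.24 and Fcgr3 at 4.81 kept the first places. The activating sum was then 3.63 times Fcgr2b, and Fcgr2b made up 21.6% of the alpha chains.

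**Figure D3:**
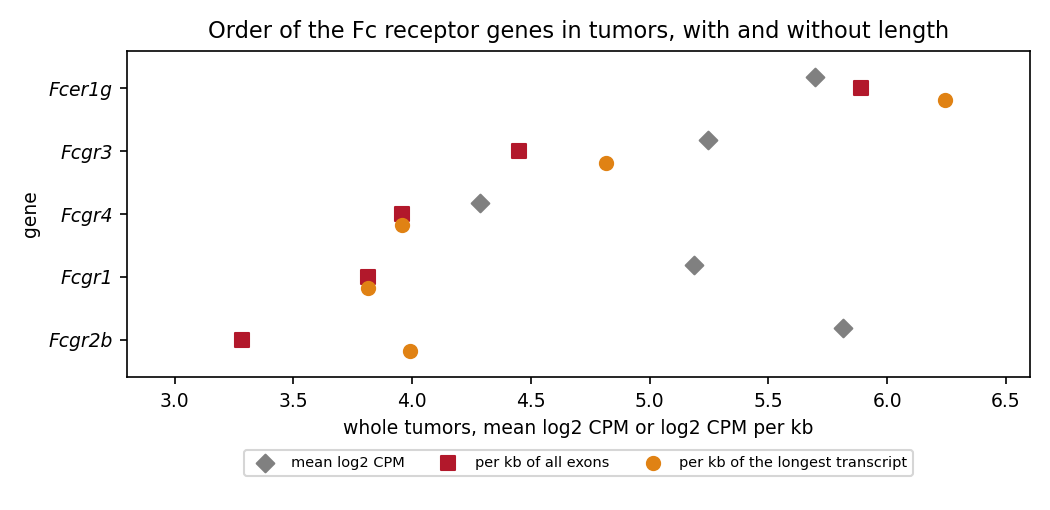
Level of the 5 Fc receptor genes in whole tumors as mean log2 CPM (grey), per kb of all exons (red) and per kb of the longest transcript (orange). Fcer1g is first and Fcgr3 is in the next place on both length scales, and Fcgr2b moves from 3.28 to 3.99 between them.

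Of 15 genes of the activating signal downstream of the receptors, 13 were analysed and 12 had a higher mean in tumors, each by over 1. Over all genes these shares were 55.9% higher and 16.6% higher by over 1. In this and every later list, a gene at the lowest in vitro value was listed only through its tumor level. Its higher tumor mean, also by over 1, was thus fixed by its listing and is not a result. The median of the 13 was 3.50 log2 CPM in tumors and 0.95 in vitro, against 4.30 and 4.11 over all genes. The 3 with the highest tumor mean were the Src family kinase Lyn at 5.54 in tumors and 3.04 in vitro, the protein kinase C gene Prkcd at 4.98 and 3.22, and Syk at 4.39 and 1.01. Cultured cells therefore had measurable RNA of the kinases while the receptors were near the lowest value. Plcg2, a phospholipase C, was the 1 gene of the list with a lower mean in tumors, at 3.10 against 3.79 in vitro. Rac2 and Fgr, a small GTPase and a Src family kinase of blood cells, were at the lowest in vitro value.

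Of 13 inhibitory ITIM receptors and phosphatases, all were analysed and 11 had a higher mean in tumors, 10 of them by over 1. Inpp5d, which acts on the lipid product of PI3 kinase downstream of Fcgr2b, had a mean log2 CPM of 4.59 in tumors and -0.31 in vitro. Ptpn6 (SHP-1), a tyrosine phosphatase of blood cells, had 4.12 and 0.89. The related phosphatases that most tissues express had slightly lower means in tumors. Ptpn11 (SHP-2) had 7.38 in tumors, a difference of -0.62 from culture, and Inppl1 (SHIP-2) had 7.67 in vitro and a difference of -0.67. All 10 housekeeping genes were lower in tumors as well, with a median difference of -0.33, and Gapdh had -0.69. Tumors and culture were normalized separately, so these small differences were not read as a change. Sirpa, an inhibitory receptor of macrophages that binds CD47, had 6.58 in tumors, a difference of 2.78 from culture. Lilrb4a, Pirb and Siglece, which are ITIM receptors of myeloid cells, were at the lowest in vitro value.

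Of 11 other ITAM adaptors and receptors that pair with the gamma chain, 9 were analysed, and all 9 had a higher mean in tumors. The differences for 8 of them were over 1. The direction was fixed by the listing for 6 of the 9, which were at the lowest in vitro value. Tyrobp, which encodes the adaptor DAP12, had a mean log2 CPM of 5.13 in tumors and -1.05 in vitro. Per kb of exons Tyrobp had 52.5 CPM in tumors, beside 59.2 for Fcer1g. Clec4n, a C-type lectin (Dectin-2) that signals through the gamma chain, had 4.35 and -1.05. Cd247, the zeta chain of the T cell receptor complex, had 2.60 and 2.51.

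Of 5 genes of the phagocyte NADPH oxidase, which makes superoxide after Fc receptor engagement, 4 were analysed and all 4 had a higher mean in tumors by over 1. The catalytic subunit gene Cybb had 5.57 in tumors and -0.83 in vitro, and Ncf4 had 3.07 and -1.05. Ncf1 was also at the lowest in vitro value.

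Other Fc receptors, Fc receptor-like genes and antibody-binding proteins outside the family had tumor means from 0.54 to 5.90. Of 13 genes listed, 7 were analysed, and all 7 had a higher mean in tumors, 6 by over 1. Fcrls, an Fc receptor-like gene, had 5.90 in tumors and -1.05 in vitro. Trim21, a cytosolic antibody receptor, had 4.71 and 2.25, and Fcgrt, the neonatal Fc receptor alpha chain, had 4.40 and 2.21. Fcer1a, the alpha chain of the IgE receptor and another partner of the gamma chain, had 0.54 and -1.05. Of 8 immunoglobulin and joining chain genes listed, 4 were analysed, and all 4 were at the lowest in vitro value. Only Ighg2c among them encodes a chain of IgG, and its tumor mean was 0.36. Ighm, of IgM, had 2.71, Igha, of IgA, 1.44, and the joining chain gene Jchain 0.40.

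**Figure D4:**
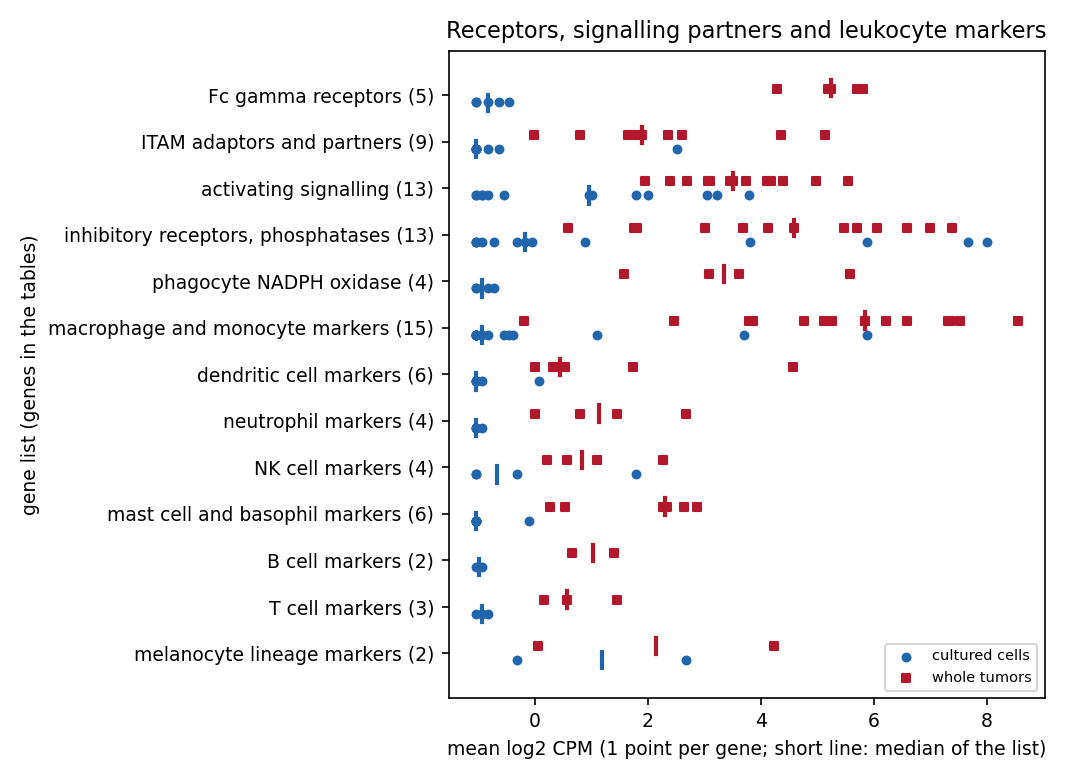
Authors' mean log2 CPM of the genes of 13 lists in cultured cells (blue circles) and whole tumors (red squares), 1 point per gene, with list medians as short lines and the number of genes analysed in brackets. In tumors the Fc receptor genes have 4.29 to 5.82 and the macrophage markers -0.20 to 8.55. The neutrophil, NK, mast, B and T cell markers reach 2.88 at most. Endothelial markers (2.87 to 5.71 in tumors) and fibroblast markers are not drawn.

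Markers of the cells known to carry the receptors were described by the same 2 means, and their part in the receptor levels was not tested. The median difference was 5.82 for macrophage and monocyte markers, 2.18 for neutrophil, 1.34 for NK cell and 2.02 for B cell markers. Endothelial markers had a median difference of 5.54, so a large difference was not particular to macrophage markers. All 15 macrophage and monocyte markers were analysed and had a higher mean in tumors, 13 by over 1, with medians of 5.85 in tumors and -0.93 in vitro. Lyz2 had 8.55 in tumors, C1qa 7.52 and C1qb 7.35. Of the 15 markers 7, these among them, were at the lowest in vitro value, so their direction was fixed by their listing. Summed, the list reached 10.34 log2 CPM in tumors and the 5 Fc receptor genes 7.66. In vitro the list summed to 6.34, mainly from Mertk at 5.89 and Cd14 at 3.69, while 12 of the 15 were under 0. The in vitro sum of the 5 Fc receptor genes, 1.53, was close to the 1.27 that 5 genes at the lowest value give. Csf1r, the receptor for macrophage colony-stimulating factor, had 6.22 and -0.83, a difference of 7.05. Itgam, also a macrophage marker, was low in both settings, at -0.20 and -0.39. The pan-leukocyte gene Ptprc had 5.70 and -0.73.

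Markers of other leukocytes had tumor means of 2.88 or less, apart from the dendritic cell marker Itgax. Tumor means of the 4 neutrophil markers analysed (of 7) ran from -0.01 to 2.67, with S100a9 at 1.45 and S100a8 at 0.80. The 4 NK cell markers analysed (of 6) ran from 0.21 to 2.27, and the 2 B cell markers (of 5) were Cd79b at 1.40 and Pax5 at 0.65. Mast cell and basophil markers, whose cells need the gamma chain for the IgE receptor, ran from 0.26 to 2.88 for the 6 analysed of 7. Their summed levels in tumors were 3.57 log2 CPM for neutrophils, 3.26 for NK cells, 2.07 for B cells and 4.70 for mast cells and basophils. In vitro the sums of 0.98 for neutrophils, 0.01 for B cells and 1.74 for mast cells and basophils were close to the 0.95, -0.05 and 1.53 that these lists give with every gene at the lowest value. The NK cell sum of 2.39 in vitro came mainly from Eomes at 1.79. Of the 6 dendritic cell markers analysed (of 7), Itgax had 4.57 in tumors and the rest were at 1.74 or lower. The 3 T cell markers analysed (of 6) ran from 0.16 to 1.45, with a summed level of 2.41 in tumors.

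Markers of endothelial cells and fibroblasts, which a tumor can also take from its host, were examined too. All 5 endothelial markers had a higher mean in tumors by over 1, from 2.87 to 5.71, and all 5 fibroblast markers were higher, 4 by over 1. The collagen genes Col1a1 and Col1a2 were high in both settings, at 10.88 and 10.51 in tumors and 9.70 and 10.31 in vitro, so this list does not separate host cells from the cultured line. Pdgfra had 8.39 and 3.83. The fibroblast genes Dcn at 8.03 and Lum at 7.11 in tumors were at -0.55 and -1.05 in vitro. The melanocyte label could be checked on 2 of 7 lineage markers: Mitf had 4.23 in tumors and 2.67 in vitro, and Pmel 0.05 and -0.31. The 10 housekeeping genes had medians of 8.62 in tumors and 8.78 in vitro, and 0 of 10 were higher in tumors.

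Transcription factors that drive the receptor genes in myeloid cells were examined next. Of 5 listed, 4 were analysed. Spi1, which encodes the macrophage factor PU.1, had a mean log2 CPM of 4.51 in tumors and -1.05 in vitro, and Cebpa had 4.48 and -0.93. Cebpb had 5.13 in tumors and 5.61 in vitro.

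Promoter letters of the members are shown for the 3 genes in which a searched motif was found, so that the place of each match can be seen. All 5 members had the pattern of levels described above, with or without a match. The 120 bases before the first RefSeq start site (GRCm38.p6) are given 5′ to 3′ on the strand of the gene, with motif matches in capitals. Fcgr1 is chr3:96293970-96294089 (minus), Fcgr3 chr1:171059404-171059523 (minus) and Fcgr4 chr1:171018806-171018925 (plus). The Fcgr3 stretch lies inside the gene as GENCODE M21 draws it, which reaches to 171064935.
Fcgr1: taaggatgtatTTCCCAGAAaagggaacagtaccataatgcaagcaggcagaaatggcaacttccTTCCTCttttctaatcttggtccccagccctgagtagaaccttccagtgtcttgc
Fcgr3: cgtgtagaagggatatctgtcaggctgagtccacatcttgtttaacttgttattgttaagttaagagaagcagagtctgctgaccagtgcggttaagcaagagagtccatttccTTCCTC
Fcgr4: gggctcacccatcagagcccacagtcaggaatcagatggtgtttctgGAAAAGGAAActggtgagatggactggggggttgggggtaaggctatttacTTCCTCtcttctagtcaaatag

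The search covered 250 bases before each start, on both strands, with overlapping matches counted apart. The PU box GAGGAA, a core bound by PU.1, was on the minus strand of Fcgr1 at -55 to -50, of Fcgr3 at -6 to -1 and of Fcgr4 at -22 to -17, and was present in 23.3% of all 32851 promoters. Counted from another RefSeq start of Fcgr3, the same letters lie at -15 to -10. The interferon gamma activated site TTCNNNGAA was found in Fcgr1 at -109 to -101 and in 7.02% of all promoters. The core of the interferon-stimulated response element was found in Fcgr4 at -73 to -64 and in 2.98% of all. The antioxidant response element core TGACNNNGC, the letters NRF2 binds with small Maf proteins, was found in 0 of the 5 members and in 10.2% of all promoters. Fcgr2b and Fcer1g had no match to any of these letters in this window, and the Fcgr2b window lay inside its GENCODE M21 gene. A match is a description of letters and was not set against binding data.

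A stretch of 276 kb of chromosome 1 holds 4 members, in the order Fcgr2b, Fcgr4, Fcgr3 and Fcer1g, while Fcgr1 lies alone on chromosome 3. Of 11 protein-coding genes in that stretch 8 were analysed, which leaves 4 genes outside the family. None of these 4 shared the pattern of the receptors. Sdhc, a subunit of mitochondrial complex II, had a mean log2 CPM of 6.45 in tumors and 6.68 in vitro, and Tomm40l, of the mitochondrial import pore family, had 3.10 and 3.61. Apoa2, an apolipoprotein gene next to Fcer1g, had -0.07 and 0.12, and Cfap126, a cilium gene next to Fcgr3, had 0.57 and -0.31.

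Genes just outside the stretch differed as well. The protease gene Adamts4, beyond Fcer1g, had 5.28 in tumors and 2.55 in vitro. On the far side, the Fc receptor-like genes Fcrla and Fcrlb had 1.36 and 1.05 in tumors and 1.04 and -0.73 in vitro. An antisense gene, Gm38204, overlaps Fcgr2b, and small RNA genes lie within Fcgr3 and Fcgr4. The strand setting of the counting is not given in the sources used here, so reads of Gm38204 and Fcgr2b may not have been kept apart.

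**Figure D5:**
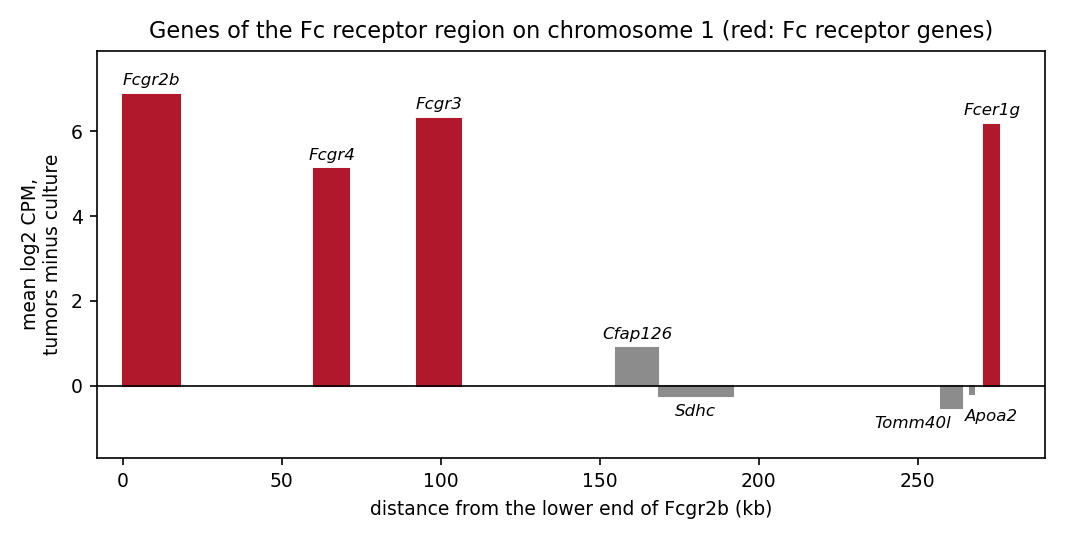
Difference of the authors' mean log2 CPM, tumors minus culture, for the 8 analysed protein-coding genes of the Fc receptor stretch on chromosome 1, drawn to scale as distance in kb from the lower end of Fcgr2b. The 4 Fc receptor genes (red) have differences of 5.11 to 6.87 and the 4 genes between them (grey) -0.52 to 0.89.

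The genes most like each member were sought by Euclidean distance over the 2 means, so likeness rests on 2 values per gene and on no sample variation. For Fcgr2b these were Acp5 at a distance of 0.06 log2 units, which encodes an acid phosphatase of osteoclasts and macrophages, Fcrls at 0.09 and Lilrb4a at 0.11. For Fcgr3 they were Ms4a6b at 0.02, Efs at 0.10 and Tyrobp at 0.12. For Fcgr1 they were the imprinted noncoding RNA H19 at 0.07, Crip1 at 0.10 and the macrophage scavenger receptor gene Msr1 at 0.12. The nearest genes thus included myeloid genes and others.

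Fcgr4 and Fcer1g were next to genes of other cells too. For Fcgr4 the nearest genes were Vwf, which encodes the von Willebrand factor of endothelial cells and platelets, at 0.03, Pydc3 at 0.07 and Scara3 at 0.10. For Fcer1g they were Trp53i11 at 0.08 and the endothelial genes Pecam1 at 0.08 and Cdh5 at 0.11. Levels like those of the members in both settings were therefore also found for genes known from endothelial cells. Which cells of the tumors expressed any of these genes was not tested.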

How the data were processed

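Poly(A) RNA of 6 tumors and 6 cell samples was extracted with the RNeasy Mini Kit and made into libraries with NEBNext Ultra II. The mm10 build, FastQC, Bowtie2 2.3.2 and TopHat2 2.1.1 are named in the submitters' processing notes. The sources used here do not give the annotation, the program that counted reads, the filter, the normalization or the test. The deposited tables, 1 for tumors and 1 in vitro, list the same 17285 genes with the authors' mean log2 CPM over both genotypes (used here) and the authors' log2 fold change, p-value and adjusted p-value of knockout against control (not used). Values per sample were not analysed, so depth is unknown and knockout was not compared with control.

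Levels, differences, ranks and percentiles were computed with pandas 2.3.3 and numpy 2.4.6 under Python 3.11.15. The percentile function and a count of genes above a difference of 1 were checked on simulated data. Figures were drawn with matplotlib 3.10.9. Lengths and positions are from GENCODE M21 (17230 IDs matched), promoters from RefSeq GRCm38.p6. Members and gene lists were chosen with earlier results of these data known. Named genes are the members, the 3 genes of each list with the highest tumor mean, defining markers at the lowest value of a table, the 3 nearest genes of each member and adjacent genes. A few items that this rule would name are not reported here. Others named (Plcg2, Inpp5d, Ptpn6, Fcer1a, Csf1r, Itgam, Mertk, Cd14, Dcn, Lum) were chosen after their values were seen. Alternatives were the centring of the tables, the set of genes ranked and the gene length.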

Additional observations from a re-analysis of the deposited data

How the results depend on the processing

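Centring the tables on the median difference of all genes (0.10) or of 10 housekeeping genes (-0.33) left all 5 members higher in tumors, with differences of 5.01 to 6.76 and 5.45 to 7.20. The median tumor percentile of the members was 64.4 over all genes, 56.7 over genes with a mean above 1 and 58.3 over protein-coding genes. The median in vitro percentile was 4.81 over all genes and 5.58 over protein-coding genes, and no member was above 1 in vitro. With the longest transcript as length, 8 of 10 pairs of members kept their order. No paired analysis was possible because the values are means over both genotypes with no values per sample. For the same reason DESeq2, a fit without the filter on low counts and leaving out a replicate were not run.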
